A study of Mus musculus with 12 samples.

Results

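The aryl hydrocarbon receptor gene Ahr, its partner gene Arnt, 3 target genes of the receptor and 5 enzyme genes of the kynurenine pathway were followed across the PFC libraries. These 10 genes were picked by name and not by their counts, but with earlier results of these data known. Each has its own row among the 41388 genes of the count table. All libraries came from Swiss Webster males aged 10 weeks that ate the same autoclaved diet. CON mice were raised conventionally in the standard animal unit. GF mice lived in isolators without microbes throughout life. The exGF mice were born GF and left the isolator on postnatal day 21 to be housed beside CON mice, from which time environmental microbes could colonize them. There were 4 libraries per group, and each was made from polyA RNA of 2 to 3 mice mixed in equal amounts. The spread given here is therefore between pools of whole tissue. In such tissue a smaller share of one cell type and less RNA per cell of that type cannot be told apart.

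The aryl hydrocarbon receptor (AHR) is a transcription factor that is held in the cytosol by chaperones until it binds a small planar molecule, and indoles that gut bacteria make from tryptophan are among its ligands. It then enters the nucleus, pairs with ARNT and binds DNA at a short core sequence near genes such as Cyp1a1, Cyp1b1, Tiparp and Ahrr. Host cells use most tryptophan in the kynurenine pathway, which opens with TDO2 or an IDO enzyme and AFMID and then divides between KMO, leading towards quinolinic acid and NAD, and the aminotransferases KYAT1, KYAT3, AADAT and GOT2, which make kynurenic acid. Kynurenine and kynurenic acid are themselves ligands of AHR.

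The sequences before the start sites of the 3 target genes are shown with the short core sequence that AHR and ARNT are known to recognise. They are given 5′ to 3′ on the strand of the gene from RefSeq (GRCm38.p6), and every copy of GCGTG, or of CACGC where it lies on the other strand, is in capitals. Ahrr spans chr13:74292332-74292581 on the minus strand, Tiparp chr3:65528197-65528409 on the plus strand, ending where the annotated gene begins, and Cyp1b1 chr17:79715062-79715311 on the minus strand.
Ahrr: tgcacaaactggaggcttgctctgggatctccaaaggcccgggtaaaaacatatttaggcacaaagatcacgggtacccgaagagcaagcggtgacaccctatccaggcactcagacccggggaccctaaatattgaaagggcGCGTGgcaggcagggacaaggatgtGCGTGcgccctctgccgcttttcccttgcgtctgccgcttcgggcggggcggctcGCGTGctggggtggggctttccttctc
Tiparp: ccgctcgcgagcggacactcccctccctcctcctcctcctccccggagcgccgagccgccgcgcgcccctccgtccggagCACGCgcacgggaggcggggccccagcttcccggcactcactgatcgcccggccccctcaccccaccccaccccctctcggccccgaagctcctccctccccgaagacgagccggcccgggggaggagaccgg
Cyp1b1: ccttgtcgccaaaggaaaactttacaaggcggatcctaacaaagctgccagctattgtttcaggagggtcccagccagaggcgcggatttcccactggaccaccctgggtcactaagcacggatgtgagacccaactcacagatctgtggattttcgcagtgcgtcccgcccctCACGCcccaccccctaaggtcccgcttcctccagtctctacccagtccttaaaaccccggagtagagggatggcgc
Counted back from the annotated start of the gene, the first letter of each copy lay at 107, 82 and 27 bases in Ahrr, at 133 in Tiparp and at 76 in Cyp1b1. A promoter was found for 9 of the 10 genes (all but Ahr), and 6 of these 9 held the core in the 250 bases before the RefSeq start, against 28.2% of 32851 mouse promoter windows of the same length. In Tdo2 and in Kmo the whole window lay inside the annotated gene, and of these Tdo2 held the core and Kmo did not. The bases shortly after the RefSeq start were found in an annotated transcript of the gene for every promoter but that of Tiparp. A match of 5 letters describes the sequence and is no measure of binding.

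Counts on genes ranged from 22757169 to 29134760 per CON library, from 13280926 (GF replicate 1) to 23465074 per GF library and from 22702599 to 28615407 per exGF library. The 4 exGF columns are named GFR1 to GFR4 in the deposited table, and their numbers were not matched to single samples. Neuron markers (7 genes) summed to 6867 to 7810 CPM (counts scaled to the library's total) in CON, 8022 to 8966 in GF and 7549 to 9021 in exGF, so that every GF library lay above every CON library. By edgeR 0 of the 7 were called in GF, and 2 had an unadjusted p under 0.05. Choroid plexus markers (6 genes) summed to 5.80 to 6.66 CPM in CON, 3.11 to 6.98 in exGF and 3.12 to 3.72 in GF but for GF replicate 1, at 14.5. Striatum markers (6 genes) summed to 266 CPM in CON replicate 2 and 264 in GFR4, and to 129 to 165 in the other libraries. The part of these shifts in the values that follow was not tested.

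Per kilobase of annotated exon the means of the 10 genes ran from 0.0899 to 3.92 RPKM. Over the 12 libraries Tiparp (3.92 ± 0.922 RPKM, mean ± SD) and Arnt (3.42 ± 0.477) were highest, followed by Ahr (1.62 ± 0.317), Cyp1b1 (0.697 ± 0.239) and Kyat3 (0.469 ± 0.0898). Afmid (0.222 ± 0.0767), Aadat (0.201 ± 0.0669) and Tdo2 (0.187 ± 0.0891) lay lower, and Ahrr (0.0908 ± 0.0346) and Kmo (0.0899 ± 0.0473) were lowest. Only from Arnt to Ahr and from Kyat3 to Afmid did the ranges of neighbours in this order not overlap, although Ahr exceeded Cyp1b1 in 12 of 12 libraries. Afmid, Aadat and Tdo2 could not be ordered beyond their spread, nor could Ahrr and Kmo. Levels are compared between genes in RPKM alone, and levels in CPM, adjusted by TMM, edgeR's scaling of library sizes, can be compared between libraries but not between genes.

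**Figure D1:**
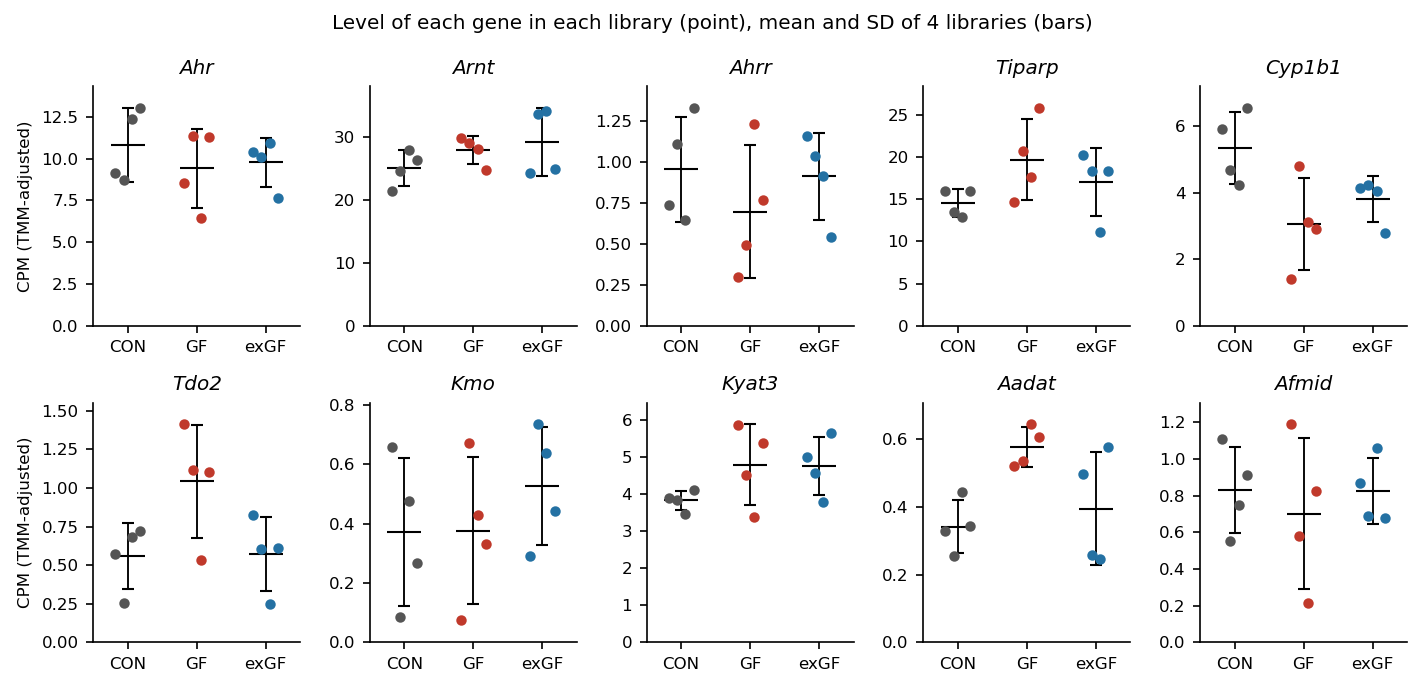
CPM of each of the 10 genes (vertical axes from 0) in the 4 CON (grey), 4 GF (red) and 4 exGF (blue) libraries, with the mean and SD of each group. GF and CON points overlap for every gene but Aadat, whose GF libraries (0.521 to 0.645 CPM) all lie above CON (0.256 to 0.443 CPM).

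The question was whether genes that sense or make tryptophan metabolites differ in the PFC without microbes, and whether they do after colonization at weaning. No difference in any of the 10 genes passed the test. Each pair of groups was fitted alone with the quasi-likelihood method of edgeR, over every gene with enough counts, and a Benjamini-Hochberg adjusted p under 0.1 made a call. In GF against CON 0 of 9 tested genes were called (Kmo did not pass the filter), where 0.251% of all 15542 tested genes were. In exGF against CON 0 of 9 were called (Aadat did not pass), against a background of 0.0696% of 15813 genes, and in exGF against GF 0 of 10, against 0% of 15569 genes. DESeq2 and limma-voom also called 0 of the 10 genes in each comparison. Before adjustment, p was under 0.05 for 3 of 9 members in GF against CON (Tiparp, Cyp1b1 and Tdo2), where it was so for 8.69% of all tested genes. The same held for 1 of 9 in exGF against CON (Cyp1b1; 5.33% of all genes) and for 0 of 10 in exGF against GF (6.65%). GF and exGF share the CON libraries, so both comparisons carry the same CON values. The median log2 fold change over the tested members was 0.15, 0.00 and 0.06 in these 3 comparisons, and over all tested genes it was 0.01, -0.01 and 0.00.

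**Figure D2:**
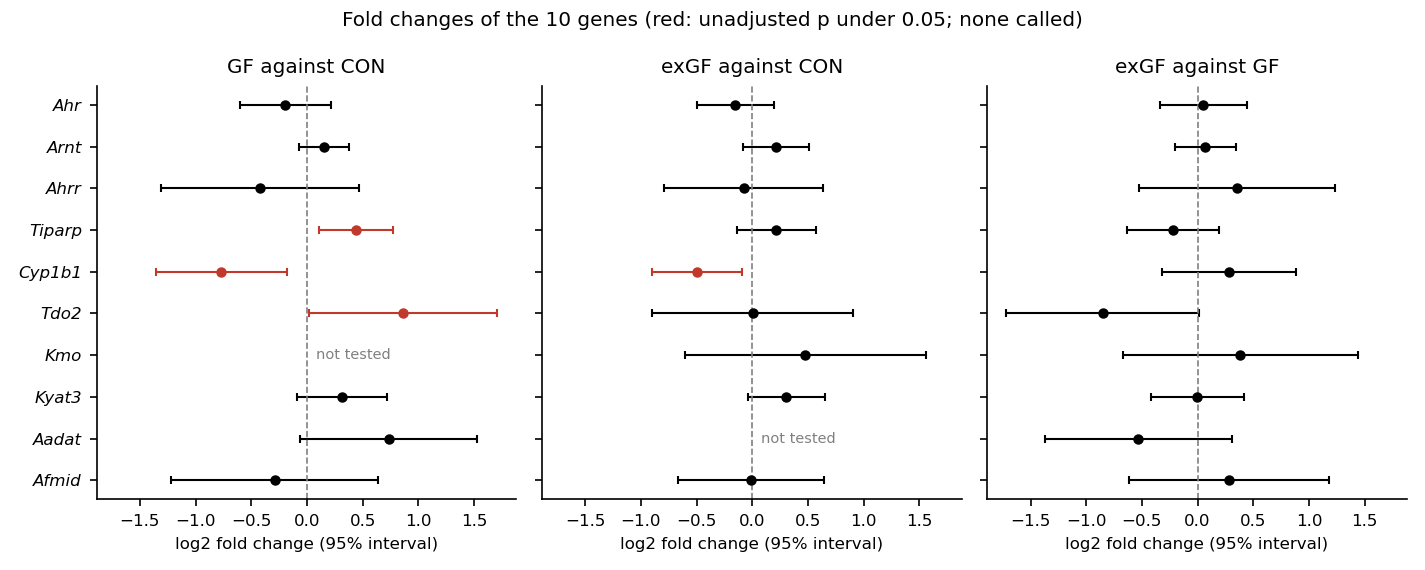
Log2 fold change of each gene (points) with its 95% interval (lines) for GF against CON, exGF against CON and exGF against GF. Red marks an unadjusted p under 0.05, found for Tiparp, Cyp1b1 and Tdo2 in GF and for Cyp1b1 in exGF; Kmo and Aadat each lack 1 comparison because they did not pass the filter on low counts.

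Ahr (ENSMUSG00000019256, GRCm38 chromosome 12 from 35497974 to 35535038) was detected in all libraries, with 115 to 362 counts. Its level was 9.11, 8.70, 12.3 and 13.0 CPM in CON replicates 1 to 4, 8.55, 11.4, 6.45 and 11.3 CPM in GF replicates 1 to 4, and 10.4, 10.1, 11.0 and 7.66 CPM in GFR1 to GFR4. The 3 groups overlapped. The log2 fold change was -0.20 in GF against CON (95% interval -0.60 to 0.21, edgeR adjusted p = 0.815), -0.15 in exGF against CON (-0.50 to 0.19, edgeR adjusted p = 0.973) and 0.05 in exGF against GF (-0.34 to 0.44, edgeR adjusted p = 0.970). GF levels under 0.658 or over 1.16 times that of CON lay outside the interval. The exons of Ahr share 127 bases with the antisense gene Gm48236, which has no row in the count table. The intervals given here are for single genes and are not adjusted for the number of genes tested.

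Microglia express Ahr, and the summed level of 8 microglia markers was 375 to 444 CPM in CON, 332 to 372 in GF and 314 to 342 in exGF. The log2 fold change against CON was below 0 for 6 of the 8 in GF and for 7 in exGF. Of these 8 markers C1qb, which encodes a chain of complement component C1q, fell in GF by 0.53 on the log2 scale (edgeR adjusted p = 0.0307). In exGF 0 were called, and the log2 fold change of C1qb was -0.59 (edgeR adjusted p = 0.1825). A lower level with an edgeR unadjusted p under 0.05 was found for 3 of the 8 in GF and for 6 in exGF. Among all genes 8.69% and 5.33% had such a p in either direction. The part of microglia in the values of Ahr and of Kmo, another gene of microglia, was not tested.

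Arnt (ENSMUSG00000015522, chromosome 3 from 95434388 to 95497240) encodes the nuclear partner of AHR. In CON it had 25.0 ± 2.79 CPM, in GF 27.8 ± 2.23 and in exGF 29.2 ± 5.36 (mean ± SD, n = 4 each, as in all later means). GFR2 and GFR3 (33.6 and 34.1 CPM) stood above all other libraries, whereas GFR1 and GFR4 (24.3 and 24.8 CPM) lay within CON. Its log2 fold change was 0.15 in GF (95% interval -0.08 to 0.38, edgeR adjusted p = 0.728) and 0.21 in exGF (-0.08 to 0.51, edgeR adjusted p = 0.952), both against CON. Its paralogue Arnt2, the form most abundant in neurons, was at 604 ± 50.4 CPM (CON), 627 ± 32.8 (GF) and 666 ± 38.0 (exGF), and per kilobase of exon it was at 82.3 RPKM where Arnt was at 3.42.

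Of the 3 targets of the receptor, Cyp1b1 (ENSMUSG00000024087, chromosome 17 from 79701537 to 79715061), a cytochrome P450 that oxidizes steroids and aromatic hydrocarbons, had a lower mean in GF and in exGF than in CON and an unadjusted p under 0.05 in both comparisons. The mean of Ahrr was also lower in both, though in exGF its log2 fold change was only -0.08 (95% interval -0.80 to 0.64). Neither gene passed the adjusted threshold. The level of Cyp1b1 was 5.91, 4.69, 4.23 and 6.55 CPM in CON replicates 1 to 4 and 1.41, 4.79, 3.12 and 2.92 CPM in GF replicates 1 to 4. In GFR1 to GFR4 it was 4.14, 4.23, 4.06 and 2.79 CPM. All GF libraries but replicate 2 lay below CON, and in exGF GFR2 reached the lowest CON library, so the groups overlapped in each comparison. In GF the log2 fold change was -0.77 (SE 0.27, 95% interval -1.35 to -0.18, unadjusted p = 0.0136 and adjusted p = 0.409 from edgeR). In exGF it was -0.50 (SE 0.19, 95% interval -0.90 to -0.09, unadjusted p = 0.0197 and adjusted p = 0.797 from edgeR). Between exGF and GF it was 0.28 (95% interval -0.32 to 0.88, edgeR adjusted p = 0.841). In GF the value was -0.57 without GF replicate 1, the shallowest library, and -1.08 without GF replicate 2. DESeq2, which shrinks fold changes towards 0, gave -0.34 in GF and -0.27 in exGF (adjusted p = 0.206 and 0.644).

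Cyp1b1 is known from blood vessel walls and meninges, and markers of meningeal fibroblasts moved in the same direction. The log2 fold change was below 0 for all 8 of these markers in both GF and exGF against CON, with medians of -0.50 and -0.45. In GF 2 of the 8 were called lower by edgeR, Col1a2 (log2 fold change -0.69, adjusted p = 0.0168) and Slc6a13 (-0.94, adjusted p = 0.0120), and in exGF 0 were. Their summed level, of which the prostaglandin D synthase gene Ptgds is the largest part, was 897 to 1600 CPM in CON, 832 to 993 in GF and 683 to 1068 in exGF. The mean log2 CPM of the 8 markers, in which each gene has equal weight, was 4.68 to 5.15 in CON, 4.17 to 4.42 in GF and 4.33 to 4.63 in exGF. By this mean every GF and exGF library lay below every CON library. Within CON, Cyp1b1 and the meningeal sum had different orders, since CON replicate 4 had the highest Cyp1b1 and the lowest sum. Summed mural cell markers (7 genes) ranged from 180 to 214 CPM in CON, 201 to 214 in GF and 192 to 237 in exGF. The part of meningeal tissue in the Cyp1b1 values was not tested.

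**Figure D3:**
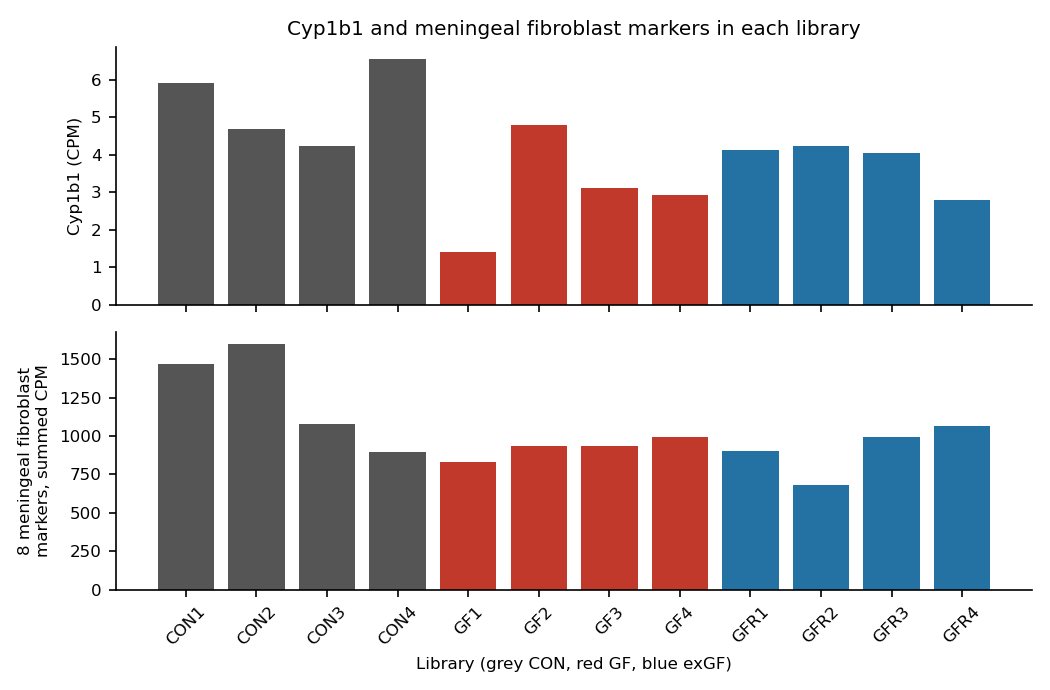
CPM of Cyp1b1 (upper bars) and summed CPM of 8 meningeal fibroblast markers (lower bars) in each library, coloured by group. GF replicate 1 has the lowest Cyp1b1 (1.41 CPM), and CON replicate 4 joins the highest Cyp1b1 (6.55 CPM) to the lowest CON meningeal sum (897 CPM).

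Tiparp (ENSMUSG00000034640, chromosome 3 from 65528410 to 65555518) encodes an ADP-ribosyltransferase that AHR induces and that acts back on the receptor. It had the opposite sign to Cyp1b1 in GF. CON replicates 1 to 4 had 15.96, 13.5, 12.9 and 15.9 CPM, and GF replicates 1 to 4 had 14.7, 20.7, 17.6 and 25.8 CPM. The exGF libraries GFR1 to GFR4 had 20.2, 18.3, 11.1 and 18.4 CPM. GF replicate 1 was the single GF library within the CON range, and in exGF 3 libraries lay above CON and GFR3 below it. Its log2 fold change in GF was 0.44 (SE 0.15, 95% interval 0.11 to 0.77, unadjusted p = 0.0127 and adjusted p = 0.402 from edgeR). It was 0.29 when GF replicate 4 was left out, 0.54 when GF replicate 1 was, and 0.30 with DESeq2. In exGF against CON it was 0.22 (95% interval -0.14 to 0.57, edgeR adjusted p = 0.968), and 0.37 without GFR3. The antisense gene 4931440P22Rik shares 5.12% of the exon length of Tiparp and had 2 to 13 counts, against 197 to 539 for Tiparp.

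Ahrr (ENSMUSG00000021575, chromosome 13 from 74211118 to 74292331), the repressor that competes with AHR for ARNT and whose promoter held the most copies of the core, had only 4 to 35 counts per library. The CON libraries had 0.957 ± 0.3204 CPM, the GF libraries 0.699 ± 0.407 and the exGF libraries 0.915 ± 0.266. The GF libraries alone spanned 0.298 to 1.24 CPM, nearly the whole range of the data. GF and CON differed by -0.42 on the log2 scale, with a 95% interval from -1.31 to 0.47 (edgeR adjusted p = 0.815). A level in GF 2-fold below CON lay within that interval. For exGF against CON the log2 fold change of Ahrr was -0.08 (95% interval -0.80 to 0.64, edgeR adjusted p = 0.997). With 1 library left out this exGF value ran from -0.23 to 0.13.

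On the kynurenine side Tdo2 (ENSMUSG00000028011, chromosome 3 from 81957090 to 81976202), which opens the tryptophan ring, had 6 to 25 counts per library. It had 0.574, 0.256, 0.682 and 0.724 CPM in CON replicates 1 to 4, 1.41, 1.12, 0.537 and 1.102 CPM in GF replicates 1 to 4, and 0.829, 0.605, 0.247 and 0.613 CPM in GFR1 to GFR4. In GF 3 libraries exceeded every CON and exGF library and replicate 3 did not. Its log2 fold change was 0.86 in GF against CON (95% interval 0.02 to 1.71, unadjusted p = 0.0449 and adjusted p = 0.563 from edgeR) and -0.85 in exGF against GF (-1.72 to 0.01, edgeR adjusted p = 0.739). Against CON the exGF value was 0.00 (95% interval -0.90 to 0.91). Leaving out 1 library gave 0.64 (CON replicate 2) to 1.08 (GF replicate 3) in GF, and DESeq2, with its shrinkage, gave 0.20.

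Afmid (ENSMUSG00000017718, chromosome 11 from 117825924 to 117839908), the formamidase of the second step, had 4 to 30 counts. The means were 0.832 ± 0.236 CPM (CON), 0.703 ± 0.410 (GF) and 0.826 ± 0.179 (exGF), with log2 fold changes of -0.29 in GF and -0.01 in exGF against CON (edgeR adjusted p = 0.891 and 0.999). Its exons overlap those of Gm20708 on the same strand over 44.2% of their length, and pairs that could belong to either gene would be left out of both, so the level of Afmid is uncertain. Gm20708 had 0 to 3 counts, and Tk1, which shares 2.35% of the exon length from the other strand, had 6 to 21.

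Kmo (ENSMUSG00000039783, chromosome 1 from 175620381 to 175662116), the monooxygenase at the branch towards quinolinic acid, was near the limit of detection. It had 16, 2, 14 and 7 counts in CON replicates 1 to 4, 1, 15, 8 and 6 in GF replicates 1 to 4, and 7, 17, 18 and 13 in GFR1 to GFR4. The groups overlapped throughout. Tested without the filter on low counts, Kmo gave a log2 fold change of 0.06 in GF against CON (SE 0.61, edgeR adjusted p = 0.984), and with the filter 0.48 in exGF against CON (95% interval -0.60 to 1.56, edgeR adjusted p = 0.973).

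The other branch makes kynurenic acid, which blocks glutamate receptors and is made in brain mainly by astrocytes. Kyat3 (ENSMUSG00000040213, chromosome 3 from 142701051 to 142746870) had 3.90, 3.84, 3.48 and 4.11 CPM in CON replicates 1 to 4, 5.88, 4.52, 3.38 and 5.40 CPM in GF replicates 1 to 4, and 5.01, 4.58, 3.78 and 5.65 CPM in GFR1 to GFR4. In each of GF and exGF 3 libraries lay above every CON library and 1 did not. Against CON the log2 fold change was 0.32 in GF (95% interval -0.09 to 0.72, edgeR adjusted p = 0.667) and 0.31 in exGF (-0.04 to 0.65, edgeR adjusted p = 0.952). The antisense gene Gm15540, which shares 2.77% of its exon length, had 0 to 2 counts. Summed astrocyte markers (8 genes) overlapped between groups, at 4571 to 4979 CPM in CON, 4599 to 5088 in GF and 4320 to 4881 in exGF.

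Aadat (ENSMUSG00000057228, chromosome 8 from 60505932 to 60545677), also called kynurenine aminotransferase II, had 8, 6, 13 and 9 counts in CON replicates 1 to 4 and 7, 12, 12 and 11 in GF replicates 1 to 4. Scaled to depth these were 0.328, 0.256, 0.443 and 0.343 CPM in CON and 0.521, 0.537, 0.645 and 0.606 CPM in GF. It was the 1 member of 9 tested whose GF and CON libraries did not overlap, where 5.08% of all tested genes did not. This was a log2 fold change of 0.73 (SE 0.37, 95% interval -0.06 to 1.52, edgeR adjusted p = 0.605). In exGF GFR1 and GFR4 (0.497 and 0.579 CPM) lay above CON whereas GFR2 and GFR3 (0.259 and 0.247 CPM) were at or below its lower end. For exGF 0 of 9 tested members were apart from CON (background 3.31%) and 0 of 10 from GF (background 3.32%).

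Beside these 10 genes, 43 others of the same pathways were examined in 5 lists: the cytosolic complex and partners of AHR, other AHR targets, other kynurenine and NAD synthesis enzymes, transporters of tryptophan and kynurenines, and other enzymes that use tryptophan. By edgeR 0 of 31 tested were called in GF against CON, 0 of 32 in exGF against CON and 0 of 30 in exGF against GF, and DESeq2 and limma-voom called 0 as well (0.251%, 0.0696% and 0% of all genes were called by edgeR). An unadjusted p under 0.05 was reached by 1 list gene in each comparison, where 8.69%, 5.33% and 6.65% of all genes reached it. The list medians ran from -0.07 to 0.12 (log2) in GF and from -0.13 to 0.06 in exGF against CON.

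Several genes that define the pathways elsewhere were barely present. Cyp1a1, the classic inducible target of AHR, had 1 to 4 counts in each library, and Cyp1a2 had 0 counts in 280705974, which allows up to 0.0107 CPM. Ugt1a6a, Ugt1a6b and Kynu, the kynureninase between KMO and the NAD branch, had at most 3 counts in any library; the Ugt1a genes share exons, which could remove their reads. Of the other targets 5 of 11 could be tested. Nqo1, a quinone reductase, averaged 3.69 ± 0.446 CPM (CON), 2.92 ± 0.588 (GF) and 2.85 ± 0.590 (exGF), with log2 fold changes of -0.33 and -0.38 against CON (edgeR adjusted p = 0.663 and 0.940). Against CON the 5 tested targets had log2 fold changes from -0.33 to 0.23 in GF, 2 above 0 and 3 below, and from -0.38 to -0.08 in exGF, 0 above 0 and 5 below, with 0 at an unadjusted p under 0.05. Of all tested genes 51.7% lay above 0 in GF and 47.9% in exGF.

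Slc22a6 and Slc22a8 encode organic anion transporters that carry kynurenic acid, and Tph2 encodes the neuronal enzyme that starts serotonin synthesis. Slc22a6, Slc22a8 and Tph2 were the list genes whose groups did not overlap in a comparison. That was 1 of 31 in GF against CON, 1 of 32 in exGF against CON and 1 of 30 in exGF against GF, against 5.08%, 3.31% and 3.32% of all genes. Slc22a6 averaged 13.6 ± 2.18 CPM (CON), 10.7 ± 1.01 (GF) and 9.94 ± 1.16 (exGF), with every exGF library below every CON library (log2 fold change -0.46, SE 0.14, edgeR adjusted p = 0.610). It is also 1 of the 8 meningeal markers above. Slc22a8 was higher in each exGF library (30.7 to 36.5 CPM) than in any GF library (26.1 to 28.5 CPM), by log2 0.27 (SE 0.09, edgeR adjusted p = 0.736). Tph2, with 7 to 25 counts per library, was at 0.806 to 1.34 CPM in GF and 0.495 to 0.768 in CON (log2 fold change 0.69, SE 0.32, edgeR adjusted p = 0.584).

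**Figure D4:**
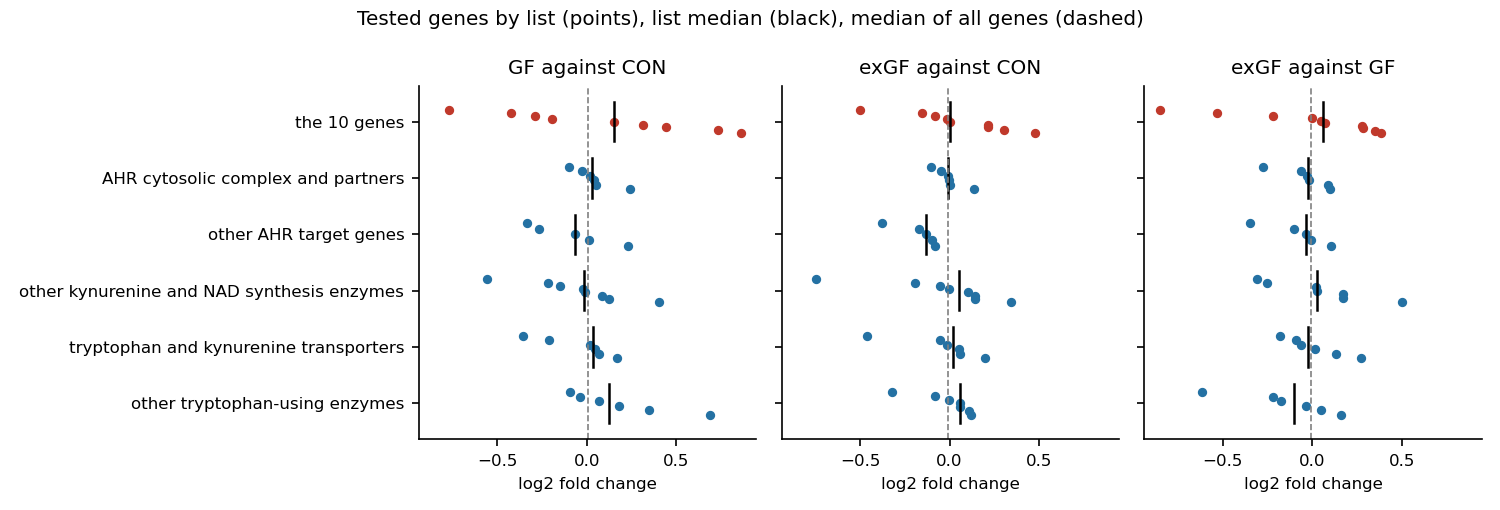
Log2 fold changes of the tested members (red) and of the tested genes of 5 pathway lists (blue) in each comparison, with list medians (black) and the median of all genes (dashed). The members spread from -0.77 to 0.86 in GF against CON, and the list genes from -0.56 to 0.69, around medians near 0.

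Over the 12 libraries the genes whose log2 CPM, each centred on its own mean, followed Cyp1b1 most closely were Angpt1, Slc6a12 and Zfp229, with root mean square differences of 0.28, 0.28 and 0.29 where Cyp1b1 itself had an SD of 0.58. For Tiparp (SD 0.33) they were Fkbp14, Hmgcll1 and Zfp874a, at 0.12, 0.13 and 0.17. Such likeness over 14178 genes is a description of these libraries only.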

How the data were processed

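Read pairs of 12 PFC libraries were trimmed by the authors with Trimmomatic 0.32, aligned to GRCm38.p3 with STAR and assigned to Ensembl genes with HTSeq 0.6.0, ignoring strand (intersection-nonempty mode); the deposited values are raw counts. Columns GFR1 to GFR4 were taken as exGF because no other group remains. Rows that name no gene were excluded, among them multiply aligned pairs (13.0% to 19.2% of the pairs in a column). Results on 1 list of cell type markers are not reported here. The genes followed and the gene lists were chosen with earlier results of these data known.

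Pairs of groups were compared with edgeR 4.0.16 in R 4.3.3 (TMM, filterByExpr, quasi-likelihood F test, Benjamini-Hochberg adjustment over all tested genes, threshold 0.1 as in the study's methods). DESeq2 1.42.0 and limma-voom (limma 3.58.1), other normalizations and filters, and fits without each library were alternatives. Intervals came from each gene's SE and its moderated degrees of freedom, and the code was tested on simulated data. Names, coordinates and exon lengths came from GENCODE M21 (GRCm38) and promoters from RefSeq. All members were named with their values; list genes were named where called, where 2 groups did not overlap and the unadjusted p was under 0.05, or where no library had over 3 counts, and Tph2, Nqo1, Arnt2 and Cyp1a1 were added after their values had been seen. Libraries of 1 group differed by more than sampling noise (mean chi-square per gene at least 8.93, where sampling alone gives about 1).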

Additional observations from a re-analysis of the deposited data

Results flagged for a closer look

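In 2 of 30 sets of 4 libraries (10 genes in 3 groups) 1 library lay apart on the log2 CPM scale by Dixon's criterion, the gap to its nearest neighbour over the whole range, with a critical value of 0.829. Chance alone gives about 1 in 20. Cyp1b1 was lowest in GFR4 (2.79 CPM, the other 3 exGF libraries 4.06 to 4.23 CPM, ratio 0.902), and without GFR4 its log2 fold change in exGF against CON was -0.35 in place of -0.50. Tiparp was lowest in GFR3 (11.1 CPM, the others 18.3 to 20.2 CPM, ratio 0.834), and without GFR3 its value in exGF was 0.37 in place of 0.22, with an unadjusted p of 0.00920 and an adjusted p of 0.936 from edgeR. Summed striatum markers were at 264 CPM in GFR4 and at 130 CPM in GFR3. The cause of either low value was not tested.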

How the results depend on the processing

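The 10 genes gave 0 calls in every comparison under each alternative run, and so did the 43 list genes; the lowest adjusted p of a member was 0.145 (Cyp1b1 in GF, edgeR without a filter on low counts). Of 474 member values recomputed, 446 kept their direction and 28 turned, all of them values whose intervals include 0. Turned values were -0.0395 (Tdo2) and 0.0025 (Afmid) with limma-voom in exGF against CON, and for Kyat3 in exGF against GF (-0.0011) 0.0124 with upper-quartile normalization, 0.001 without a filter, 0.0096 with at least 10 counts in every library, 0.0022 with DESeq2 on 12 libraries and 0.0243 with limma-voom. Leaving out 1 library, values ran in GF against CON from -0.63 to 0.0184 (Afmid), in exGF against CON from -0.16 to 0.16 (Afmid), -0.23 to 0.13 (Ahrr) and -0.22 to 0.26 (Tdo2), and in exGF against GF from -0.14 to 0.11 (Kyat3), -0.10 to 0.16 (Ahr), -0.025 to 0.62 (Afmid) and -0.0148 to 0.15 (Arnt). Over all genes, 39 calls in GF became 221 without a filter, 194 with DESeq2 on 2 groups and 171 on 12 libraries, and 27 (without CON replicate 3) to 60 (without GF replicate 2) with a library left out. The 11 in exGF became 48, 55 and 55 under the same 3 settings, 7 with at least 10 counts in every library, and 8 to 14 with a library left out. The 0 in exGF against GF became 32, 17 and 11, 2 in a single edgeR fit, and 0 to 7 with a library left out (7 without GFR1, 6 without GFR4, 2 without GF replicate 4). The cause of these differences was not tested. With the replicate number as a block, 0 members and 51 genes were called in GF, and Cyp1b1 was at -0.83 (edgeR adjusted p = 0.538). The same numbers did not pair the libraries: correlations of the deviations of like-numbered CON and GF libraries were -0.05 to 0.03, and 0 of 4 correlated best with their own number. No paired analysis of exGF was possible because its columns were not matched to numbered samples. Depth limits Ahrr, Tdo2, Kmo, Aadat and Afmid, with at most 35 counts in any library.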
